A study of Mus musculus with 8 samples.

Results

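Nucleoporins, the subunits of the nuclear pore complex, and the receptors that carry cargo through the pore were followed in neural stem/precursor cells of the mouse forebrain, with and without added Nfia. The genes were chosen by symbol alone (Nup, Kpna, Kpnb, Xpo, Ipo and Tnpo followed by a number, and Xpot), which took 45 of the 23997 symbols measured: 22 nucleoporins and 23 transport receptors. No value entered that rule, but the family was singled out with the difference between Nfia and control cells already known, so the counts below describe it and carry no claim about the family as a whole. The cells were taken from the telencephalon of ICR mouse embryos at E11.5 (the stage label of the samples reads E11) and grown as an attached culture in medium with 10 ng/mL basic fibroblast growth factor. Both groups shared this preparation: 3 libraries came from control cells and 3 from cells transduced with Nfia, a DNA-binding factor of the nuclear factor I family, and poly(A) RNA was sequenced 3 days after transduction. The labels name no vector, promoter or control construct, and nothing in them shows that a group's libraries are separate cultures. The p-values therefore set the difference between groups against the variation among these libraries, which may be technical. The 2 ChIP samples of the study are not analysed here.

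The nuclear pore complex is a channel through the nuclear envelope. An outer ring on each face and an inner ring between them form its frame, a membrane-spanning subunit anchors it, and subunits rich in phenylalanine-glycine (FG) repeats fill the channel. Importins bind cargo in the cytoplasm and release it in the nucleus when they meet the small GTPase Ran in its GTP form, whereas exportins need Ran-GTP to hold cargo and release it in the cytoplasm. Importin alpha proteins are adaptors: they recognise the classical nuclear localisation signal and are themselves carried by importin beta 1. Importin alpha subtypes are known to be exchanged during neural differentiation, and cells that divide rebuild their pores after each mitosis.

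Values are FPKM, fragments scaled by transcript length and by the size of the library, and each difference is the Nfia mean less the control mean of log2(FPKM + 1), a scale that understates changes at low values. The limma test was run on the 12537 genes that averaged at least 1 FPKM, its p-values were adjusted over all of them by the Benjamini-Hochberg method, and a gene was called at an adjusted p under 0.05. Nfia itself was 19.8, 23.9 and 22.2 FPKM in the control libraries and 69.0, 85.6 and 103.5 FPKM in the Nfia libraries, 3.92-fold higher (log2 difference 1.91, SE 0.14, adjusted p = 0.000413). The files hold no read counts, so the absolute depth is unknown. Depth relative to control 1 was only estimated from the FPKM values, over 2279 to 3054 genes per library. These estimates lay between 0.760 (Nfia 3) and 1.11 (Nfia 1). Precursor markers were present in all 6 libraries: Sox2 held 221.6 to 238 FPKM and Nes 88.0 to 97.9 FPKM in control and 145 to 155 FPKM with Nfia (of 8 such markers 4 rose and 2 fell). The summed level of 9 neuron markers was 1378 to 1492 FPKM in control and 814 to 837 FPKM with Nfia, and 8 of them fell. The summed level of 15 proliferation genes was 1282 to 1367 FPKM in control and 1537 to 1666 FPKM with Nfia, and 8 of them rose (4 to 7 with 1 library left out, the fewest without control 2, control 3 or Nfia 2). Microglia and erythroid markers were near 0 (sums of 0.555 to 1.57 FPKM). The 5 fibroblast and mural markers summed to 4.40 FPKM in control 1 and 3.27 FPKM in Nfia 1, against 9.58 to 10.9 FPKM in the other 4 libraries, and 0 of the 5 were called. Of 4 astrocyte markers tested 1 rose and 2 fell, and of 4 oligodendrocyte lineage markers 2 fell. The 1 endothelial marker tested, Cldn5 at a mean of 1.55 FPKM, fell. Beside these marker counts, 16.1% of all genes tested rose and 15.1% fell.

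Of the 45 genes, 41 were tested and 19 of them were higher with Nfia, while 0 were lower. Among the nucleoporins 10 of 19 tested rose, and among the transport receptors 9 of 22, beside 16.1% of all genes tested that were higher and 15.1% that were lower. All 3 Nfia libraries lay above all 3 control libraries for 15 nucleoporins and 13 receptors, beside 24.7% of all genes, and all lay below for 0 of them, beside 22.9% of all genes. The 19 called genes had groups that did not overlap. The median log2 difference was 0.18 for the nucleoporins, 0.14 for the receptors and 0.01 for all genes tested. The difference between both medians, 0.05, is small beside the differences of single genes, and it was 0.02 to 0.07 with 1 library left out. The changes were modest: apart from Nup210, called nucleoporins were 13.5% to 20.6% higher and called receptors 11.8% to 28.2% higher, whereas the median of all 2020 genes called higher was 0.33 on the log2 scale and 1 member exceeded 0.5. Many of the calls lie close to the threshold. With 1 library left out, 3 to 9 nucleoporins were called (3 without Nfia 2, 4 without control 1 or control 3, 5 without Nfia 1) and 4 to 8 receptors (4 without control 3, Nfia 1 or Nfia 2, and 6 without control 1 or Nfia 3). As the groups of the 19 called genes did not overlap, their log2 differences had to stay above 0 whichever library was left out. Without both libraries of low fibroblast marker levels, control 1 and Nfia 1, only 2 nucleoporins (10.5%) and 2 receptors (9.09%) were called, beside 9.55% of all genes. That fit has 2 libraries per group, and its median log2 differences were 0.176 for the nucleoporins and 0.133 for the receptors. The part of dividing cells, of neurons and of fibroblasts in these values was not tested, and in RNA from whole cultures fewer cells of a type and less RNA per cell cannot be told apart.

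**Figure D1:**
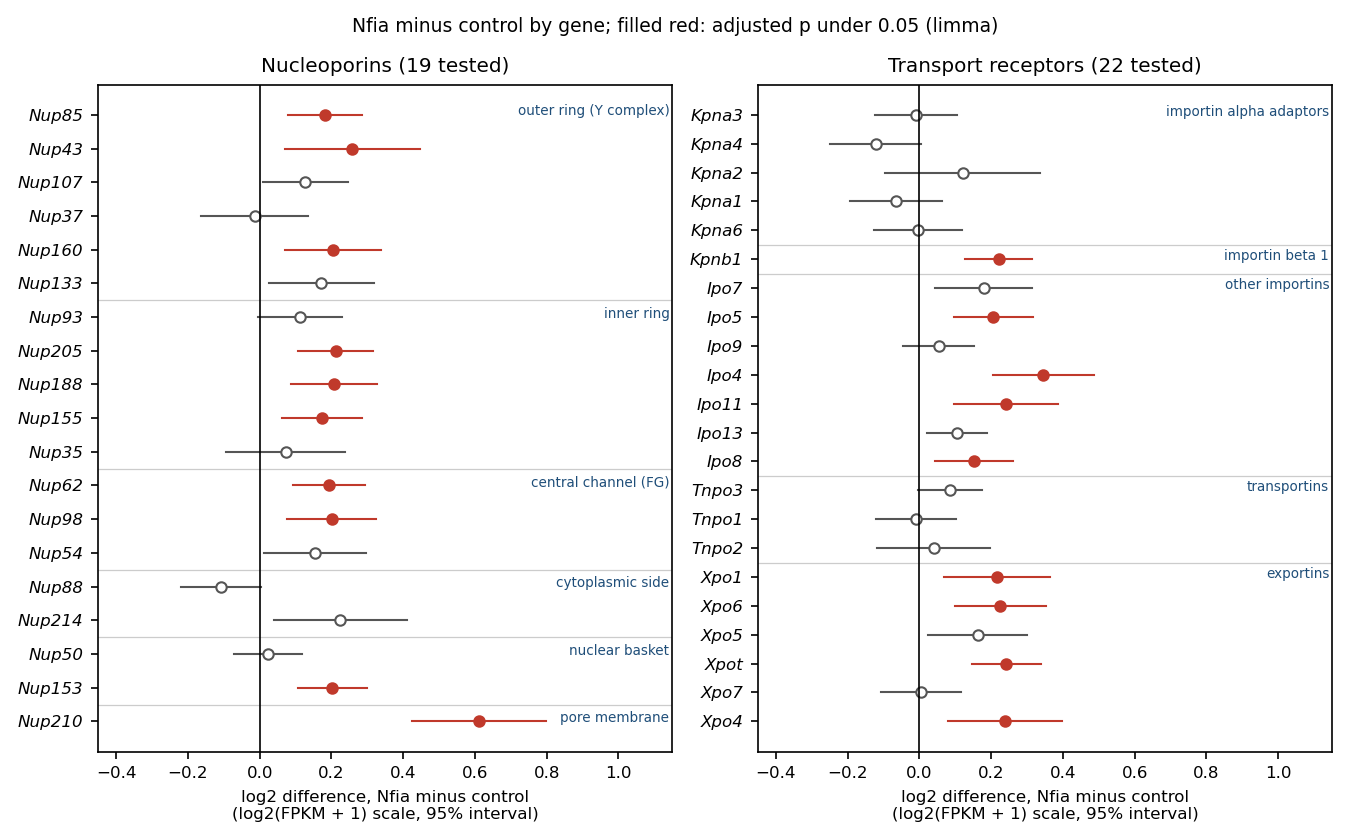
Log2 difference (Nfia minus control, log2(FPKM + 1) scale, 3 libraries per group) of the 19 nucleoporins and 22 transport receptors tested, ordered by role and, within a role, by level; bars are 95% intervals and filled red points are genes with an adjusted p under 0.05. Red points lie to the right of 0 in most role groups, and Nup210 stands farthest to the right. The 5 importin alpha genes, the 3 transportins and the 2 nucleoporins of the cytoplasmic side hold none.

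Per transcript length, the receptors were the more abundant class, with a median of 37.6 FPKM over the 22 tested against 23.3 FPKM for the 19 nucleoporins and 14.7 FPKM for all genes tested. Kpnb1 led at 139 FPKM over the 6 libraries, the 95th percentile of tested genes, followed by Ipo7 at 117 FPKM, Ipo5 at 112.5 FPKM and Xpo1 at 105 FPKM. The most abundant nucleoporin was Nup88 at 74.1 FPKM, and the least abundant members tested were Xpo4 at 7.99 FPKM and Nup214 at 8.77 FPKM. The summed nucleoporin level was 543, 550 and 532 FPKM in control and 606.5, 596 and 591 FPKM with Nfia, and the summed receptor level was 1074, 1046 and 1050 FPKM in control and 1166, 1158 and 1161 FPKM with Nfia. Both sums were higher in every Nfia library than in any control library. Their ratio hardly moved: receptors per nucleoporin were 1.95 ± 0.043 in control and 1.94 ± 0.0212 with Nfia (SD, n = 3 per group), and the groups overlapped.

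Promoter sequence was available for 35 of the 45 genes, from RefSeq on GRCm38.p6, as windows of 300 bases from 250 before to 50 after a start site. These windows were rich in GC (median 64.5%) and in CG dinucleotides (median 28), against 61.3% and 21 for the tested genes and 52.7% and 7 for all windows. On both strands, the full NFI palindrome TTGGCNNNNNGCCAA was in 0 of 35 and the shorter core TTGGCA was in 4 of 35 (11.4%; Nup214, Tnpo1, Tnpo3 and Xpot), beside 0.0326% and 13.1% of 9193 tested genes and 0.0365% and 14.1% of all windows. The letters GCGCATGCGC, the core of the site of NRF1, a factor of genes for mitochondria and basic cell functions, were in 4 of 35 (11.4%; Nup107, Nup50, Nup62 and Xpo5), beside 2.39% of tested genes and 0.971% of all windows. Of these 8 matches of the short NFI core and of the NRF1 letters, those in Nup62 and Xpot belong to called genes. Such a match describes letters and no bound site. Shown are the bases before the start of Nup210, the member with the largest log2 difference (chr6:91116827-91117076, minus strand, before a RefSeq start that lies inside the full span of the gene, no TTGGCA on either strand), of Nup62 (chr7:44815838-44816087, plus strand) and of Xpo5 (chr17:46202642-46202810, plus strand, cut at the start of its neighbour Polh), with the NRF1 letters in capitals. They begin 20 bases before the start of Nup62, and 85 and 62 bases before that of Xpo5.
Nup210: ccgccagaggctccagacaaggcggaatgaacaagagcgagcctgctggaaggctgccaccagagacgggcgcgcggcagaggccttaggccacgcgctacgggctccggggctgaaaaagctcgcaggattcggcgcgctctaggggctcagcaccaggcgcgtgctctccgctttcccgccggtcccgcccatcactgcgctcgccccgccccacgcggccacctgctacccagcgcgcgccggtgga
Nup62: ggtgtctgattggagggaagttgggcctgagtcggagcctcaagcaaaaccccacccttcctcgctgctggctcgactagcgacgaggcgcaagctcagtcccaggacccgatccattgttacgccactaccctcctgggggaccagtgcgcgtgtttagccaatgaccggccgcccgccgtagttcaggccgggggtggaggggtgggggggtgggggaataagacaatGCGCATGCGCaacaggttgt
Xpo5: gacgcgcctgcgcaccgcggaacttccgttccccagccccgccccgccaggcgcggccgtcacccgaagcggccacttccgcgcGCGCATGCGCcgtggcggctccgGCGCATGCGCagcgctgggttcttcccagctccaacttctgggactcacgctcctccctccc

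Several of these genes share their promoter region with a gene on the other strand. Within 1000 bases, 6 members had a partner that starts in the opposite direction, and 2 of the 6 partners rose, beside 16.1% of all genes tested. So few pairs carry no claim about shared promoters. Polh, a polymerase that copies past damaged bases, starts 170 bases from Xpo5. It was 7.26, 7.57 and 7.40 FPKM in control and 9.07, 9.57 and 9.94 FPKM with Nfia (log2 difference 0.32, SE 0.05, adjusted p = 0.00522), while Xpo5 itself did not pass the test (log2 difference 0.16, adjusted p = 0.0764). Atf5, a transcription factor of the stress response, starts 430 bases from Nup62 and rose with it (log2 difference 0.19, SE 0.04, adjusted p = 0.00908; without both control 1 and Nfia 1, 0.0675). Atf5 has another annotated start inside Nup62, so the 2 genes overlap on opposite strands, and since no source says how strand was used in making the values, their reads may not be separate. The partners of Nup188 (Dolk), Nup37 (Parpbp), Nup88 (Rpain) and Nup98 (Pgap2) did not pass the test, with adjusted p-values of 0.19 to 0.645. Nup98 and Pgap2 start 7 bases apart, and Nup98 rose by 0.20 on the log2 scale whereas Pgap2 had a difference of -0.04.

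Nup210, the membrane glycoprotein of the pore, had the largest log2 difference of the 41 tested members. It lies on chromosome 6 from 91013067 to 91118322 (GRCm38.p6). It was 11.7, 12 and 12.1 FPKM in the control libraries and 17.8, 17.4 and 21.4 FPKM in the Nfia libraries, a rise from 11.9 ± 0.213 to 18.9 ± 2.18 FPKM (SD, n = 3) or 57.8%. The control libraries differ by less than 1 FPKM and every Nfia library stands well above them, with Nfia 3 the highest. The log2 difference was 0.61 (SE 0.08, 95% interval 0.42 to 0.80, adjusted p = 0.00229), and the call held without each single library and without both control 1 and Nfia 1. At 15.4 FPKM over the 6 libraries, Nup210 was near the middle of all tested genes (51.6th percentile).

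In the outer ring, the Y-shaped complex that lines both faces of the pore, 3 of the 6 subunits taken by symbol rose. Of all genes tested, 16.1% rose. Groups as small as this and those below carry no claim about a ring or class. Sec13, Seh1l and Ahctf1, outer ring subunits with other symbols, were not called (log2 differences 0.03, 0.07 and 0.14). Nup85 was 48.1, 49.4 and 45.7 FPKM in control and 55.1, 53.1 and 54.4 FPKM with Nfia (log2 difference 0.18, SE 0.04, adjusted p = 0.0206). Nup160 was 14.7, 16.6 and 15.2 FPKM in control and 18.1, 18.4 and 17.4 FPKM with Nfia (0.20, SE 0.06, adjusted p = 0.0322). Nup43 was 32.7, 31.0 and 32.7 FPKM in control and 41.9, 40.4 and 34.1 FPKM with Nfia (0.26, SE 0.08, adjusted p = 0.0474). For Nup43 only Nfia 1 and Nfia 2 stand clear of the controls, while Nfia 3 lies just above them, and its p is the nearest to the threshold of all called members. The least abundant of the 6, Nup133, was 15.4, 13.6 and 15.3 FPKM in control and 17.0, 17.3 and 16.0 FPKM with Nfia, a log2 difference of 0.17 short of the threshold (adjusted p = 0.0743; 0.0341 with library quality weights). Nup107 (0.13, adjusted p = 0.0964) did not pass either, and Nup37 was nearly level (-0.01, adjusted p = 0.888). Leaving out control 1, control 3, Nfia 1 or Nfia 2 ended the Nup85 call (adjusted p = 0.0523, 0.0667, 0.061 and 0.0531), and, in the same order, the Nup160 call (0.092, 0.0961, 0.0819 and 0.105). The Nup43 call ended without each library but Nfia 3 (0.0929 to 0.137), and with no filter on low values, upper-quartile or quantile scaling or no variance trend (0.062 to 0.0726).

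The inner ring holds the frame together around the channel, and 3 of its 5 tested subunits rose, beside 16.1% of all genes tested. Nup205 was 36.6, 34.6 and 33.8 FPKM in control and 39.9, 41.2 and 40.9 FPKM with Nfia (log2 difference 0.21, SE 0.04, adjusted p = 0.0121). Nup188, its paralogue and alternative partner of Nup93, was 21.5, 21.5 and 21.6 FPKM in control and 25.0, 23.6 and 26.5 FPKM with Nfia (0.21, SE 0.05, adjusted p = 0.0215). Nup155 was 18.3, 18.0 and 19.1 FPKM in control and 21.8, 20.2 and 20.8 FPKM with Nfia (0.17, SE 0.05, adjusted p = 0.0315). In each of these 3 genes, as in all 19 called members, the lowest Nfia library lay above the highest control library. Nup93, the scaffold that binds both large paralogues and the most abundant of the ring, was 39.7, 41.2 and 37.0 FPKM in control and 43.3, 41.6 and 42.6 FPKM with Nfia, and did not pass (0.11, adjusted p = 0.132). Nup35, the least abundant, was 8.95, 10.4 and 9.71 FPKM in control and 9.90, 10.9 and 9.84 FPKM with Nfia, and the groups overlapped (0.07, adjusted p = 0.46). The Nup205 call ended without Nfia 2 (adjusted p = 0.0506) and the Nup188 call without control 1, control 2, control 3 or Nfia 1 (0.0593, 0.0564, 0.0634 and 0.0547). The Nup155 call ended without any 1 of the 6 libraries (0.0516 to 0.0907) and with upper-quartile or quantile scaling (0.0631 and 0.0513).

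Among the FG subunits of the central channel, the part that receptors touch as they pass, 2 of the 3 taken by symbol rose. The share of all genes tested was 16.1%. Nup62 was 50.8, 47.95 and 49.97 FPKM in control and 57.9, 57.4 and 55.1 FPKM with Nfia (log2 difference 0.19, SE 0.04, adjusted p = 0.015). Nup98, whose transcript also encodes the outer ring subunit Nup96, was 19.9, 21.9 and 20.2 FPKM in control and 23.3, 23.5 and 24.9 FPKM with Nfia (0.20, SE 0.05, adjusted p = 0.0267). Nup54, a partner of Nup62, was 18.3, 19.1 and 18.9 FPKM in control and 21.3, 22.5 and 19.4 FPKM with Nfia, and did not pass (0.15, adjusted p = 0.0935) except without Nfia 3 (0.0318) or with library quality weights (0.0285). Nup62, Nup98 and Nup54 had higher values in every Nfia library than in any control library, beside 24.7% of all genes tested. Nupl1, the symbol here of the channel subunit Nup58, ran the other way and was not called (-0.08, adjusted p = 0.196). It was 32.09, 31.85 and 33.43 FPKM in control and 31.26, 30.94 and 30.06 FPKM with Nfia. The Nup62 call ended without Nfia 2 (adjusted p = 0.0601). Leaving out control 1, control 3, Nfia 2 or Nfia 3 ended the Nup98 call (0.0807, 0.0851, 0.0657 and 0.0713), as did upper-quartile scaling (0.0564).

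On the nuclear side, Nup153, a basket subunit that docks receptors, was 31.3, 33.3 and 32.3 FPKM in control and 36.9, 37.1 and 38.0 FPKM with Nfia (log2 difference 0.20, SE 0.04, adjusted p = 0.0106). That call held without each single library but not without both control 1 and Nfia 1 (adjusted p = 0.0706). Nup50, a mobile basket subunit and the more abundant of the pair, was 35.6, 37.2 and 35.2 FPKM in control and 35.9, 37.1 and 36.7 FPKM with Nfia, with overlapping groups (0.02, adjusted p = 0.69; -0.01 with upper-quartile or quantile scaling). On the cytoplasmic side, where exported RNA is released, 0 of 2 passed, beside 16.1% higher and 15.1% lower of all genes tested. Nup214 was 7.20, 8.58 and 8.28 FPKM in control and 9.08, 9.25 and 10.2 FPKM with Nfia (0.22, adjusted p = 0.069). Its binding partner Nup88 was 78.5, 78.5 and 73.6 FPKM in control and 74.2, 70.0 and 69.5 FPKM with Nfia (-0.11, adjusted p = 0.129). Nup88 was the only nucleoporin tested with a difference below -0.1, and it was called lower with upper-quartile (adjusted p = 0.0412) and quantile scaling (adjusted p = 0.0396).

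**Figure D2:**
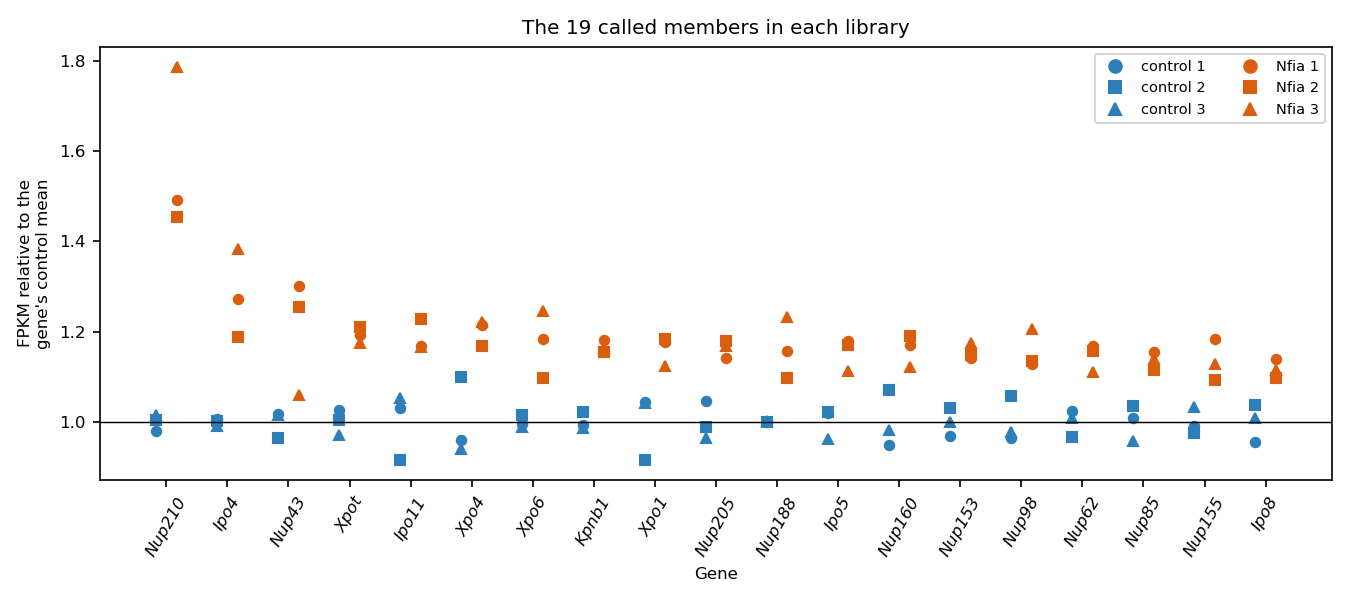
FPKM of the 19 members called higher, in each library, divided by the mean of that gene's 3 control libraries. Blue symbols are control and orange symbols Nfia libraries, and the genes are ordered by their log2 difference. The orange symbols lie above the blue ones for every gene, most of them between 1.1 and 1.25 of the control mean; Nup210, Ipo4 and Nup43 reach higher in at least 1 Nfia library.

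Of the 5 importin alpha genes tested 0 passed, as with the 3 transportins. Of all 12537 genes tested, 8619 were called neither higher nor lower, so 0 of 5 does not set these genes apart. Kpna3 was 61.2, 55.9 and 60.5 FPKM in control and 60.2, 58.7 and 57.4 FPKM with Nfia (log2 difference -0.01, adjusted p = 0.897). Kpna4 was 46.2, 42.1 and 47.0 FPKM in control and 42.2, 41.6 and 40.2 FPKM with Nfia (-0.12, adjusted p = 0.127), and it was called lower without control 2 (adjusted p = 0.0432). Kpna2, the subtype of precursors and other dividing cells, was 35.9, 41.8 and 38.8 FPKM in control and 37.2, 45.3 and 44.7 FPKM with Nfia (0.12, 95% interval -0.10 to 0.34, adjusted p = 0.351). A Kpna2 pseudogene exists, and no source says how reads that fit both were assigned. Kpna1, the subtype known from neurons, was 42.7, 37.9 and 38.7 FPKM in control and 37.1, 38.6 and 38.1 FPKM with Nfia (-0.06, adjusted p = 0.399). Kpna6 was 18.4, 18.97 and 18.4 FPKM in control and 17.7, 18.1 and 19.8 FPKM with Nfia (-0.00, adjusted p = 0.964). In all 5 genes the groups overlapped. Summed, they held 201.5 ± 4.25 FPKM in control and 199 ± 4.02 FPKM with Nfia (SD, n = 3 per group). The makeup of the sum was also close: Kpna2 held 19.3 ± 1.86% of it in control and 21.3 ± 1.89% with Nfia, and Kpna4 held 22.4 ± 0.89% and 20.8 ± 0.852%. Kpna7, the subtype of oocytes and early embryos, was listed at 0 in 4 libraries and at no more than 0.049 FPKM in the others.

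Importin beta 1, the carrier of the importin alpha proteins, did rise. Kpnb1 lies on chromosome 11 from 97159710 to 97187892 and was 127.7, 131.4 and 126.8 FPKM in control and 151.9, 148.4 and 149.8 FPKM with Nfia, a rise from 129 ± 2.42 to 150 ± 1.74 FPKM (SD, n = 3) or 16.7%. Both groups were tight and lay far apart beside their spread (log2 difference 0.22, SE 0.04, adjusted p = 0.00689), and the call held without each single library but not without both control 1 and Nfia 1 (adjusted p = 0.066). Per unit of summed importin alpha, Kpnb1 was 0.625, 0.668 and 0.623 in control and 0.781, 0.734 and 0.748 with Nfia. The ratio was thus higher in every Nfia library, at 0.754 ± 0.0241 against 0.639 ± 0.0254, though with 3 libraries on each side an exact permutation test can reach no p below 0.1.

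**Figure D3:**
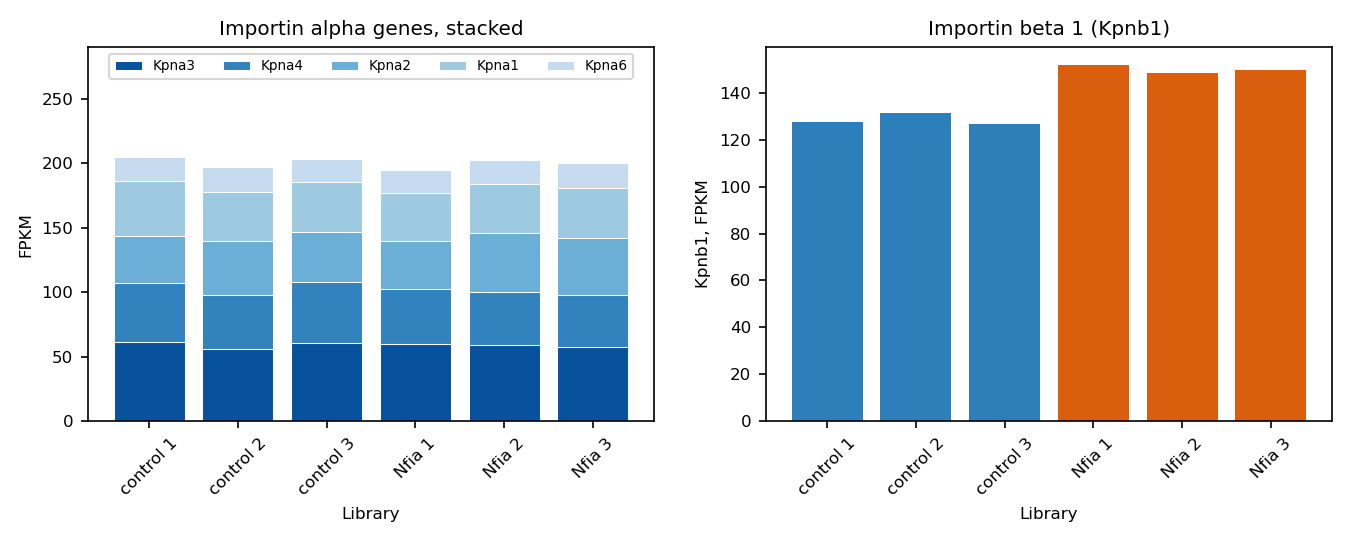
Left, FPKM of the 5 importin alpha genes tested, stacked, in each of the 6 libraries; right, FPKM of Kpnb1 in the same libraries. The stacks reach 194.5 to 204.5 FPKM in both groups, whereas Kpnb1 stands at 126.8 to 131.4 FPKM in control and at 148.4 to 151.9 FPKM with Nfia.

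Of the other importins, which bind cargo without an adaptor, 4 of 7 rose, beside 16.1% of all genes tested. Ipo4, which carries histones among other cargo, lies on chromosome 14 from 55625400 to 55635868 and was 32.2, 32.0 and 31.6 FPKM in control and 40.7, 37.9 and 44.1 FPKM with Nfia (log2 difference 0.35, SE 0.06, adjusted p = 0.00607). This was the largest log2 difference of any receptor, 28.2% in FPKM, and the call held without each single library and without both control 1 and Nfia 1. Ipo5, a carrier of ribosomal proteins and histones, was 106.4, 106.6 and 100.4 FPKM in control and 123, 122 and 116 FPKM with Nfia (0.21, SE 0.05, adjusted p = 0.0162). Ipo11 was 31.9, 28.3 and 32.6 FPKM in control and 36.2, 38.0 and 36.1 FPKM with Nfia (0.24, SE 0.06, adjusted p = 0.0239). Ipo8, the least abundant of the 7, was 14.6, 15.9 and 15.4 FPKM in control and 17.5, 16.8 and 17.1 FPKM with Nfia (0.15, SE 0.05, adjusted p = 0.0455). Ipo8 and Nup43 are the 2 called genes nearest to the threshold, and on its other side stand Ipo7 and Ipo13. Ipo7, the most abundant of the 7 and a paralogue of Ipo8, was 118, 104 and 107 FPKM in control and 127, 125 and 121 FPKM with Nfia (0.18, adjusted p = 0.0527), and was called without control 1 (0.0243) and with quantile scaling, a robust trend or library quality weights (0.0224 to 0.0439). Ipo13, which carries cargo both ways, was 26.3, 26.7 and 26.6 FPKM in control and 28.6, 28.6 and 28.7 FPKM with Nfia, a small and even difference that did not pass (0.11, adjusted p = 0.0597) except with no filter on low values (0.045) or library quality weights (0.0397). Ipo9 was nearer to level (0.05, adjusted p = 0.36). The Ipo5 call ended without control 3 or Nfia 2 (adjusted p = 0.0568 and 0.0653) and the Ipo11 call without Nfia 1 or Nfia 2 (0.0512 and 0.0824). The Ipo8 call ended without any 1 of the 6 libraries (0.0512 to 0.125) and with no filter, upper-quartile, median-of-ratios or quantile scaling, no variance trend or a robust trend (0.0558 to 0.104).

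The 3 transportins, which import RNA-binding proteins, gave 0 calls, beside 16.1% higher and 15.1% lower of all genes tested. Tnpo3, the receptor of splicing factors of the SR family, was 59.7, 58.0 and 57.4 FPKM in control and 61.1, 61.7 and 62.9 FPKM with Nfia (log2 difference 0.08, 95% interval -0.00 to 0.17, adjusted p = 0.132). Its groups did not overlap, but the gap was small. Tnpo2, the least abundant, was 31.2, 36.1 and 34.9 FPKM in control and 34.0, 33.9 and 37.0 FPKM with Nfia (0.04, adjusted p = 0.677), and Tnpo1, the receptor of hnRNP proteins, had a difference of -0.01 (adjusted p = 0.90). The interval of Tnpo2 (-0.12 to 0.20) includes the differences of some called members, and that of Tnpo1 (-0.12 to 0.10) includes none of them.

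Among the exportins 4 of 6 rose, beside 16.1% of all genes tested. Xpot, the tRNA export receptor, lies on chromosome 10 from 121587380 to 121626506 and was 19.9, 19.4 and 18.8 FPKM in control and 23.1, 23.4 and 22.7 FPKM with Nfia, 19.2% higher (log2 difference 0.24, SE 0.04, adjusted p = 0.00582). That call held without each single library and without both control 1 and Nfia 1. Xpo1 (CRM1), the exporter of proteins with a leucine-rich export signal and the most abundant of the 6, was 101.5, 89.1 and 101.3 FPKM in control and 114.5, 115.2 and 109.3 FPKM with Nfia (0.22, SE 0.06, adjusted p = 0.0378). Xpo6, the exporter of actin, was 31.7, 32.3 and 31.5 FPKM in control and 37.7, 35.0 and 39.7 FPKM with Nfia (0.23, SE 0.05, adjusted p = 0.019). Xpo4, the least abundant, was 6.96, 7.98 and 6.83 FPKM in control and 8.81, 8.48 and 8.86 FPKM with Nfia (0.24, SE 0.07, adjusted p = 0.0354). As in all 19 called members, every Nfia library lay above every control library in these 4 genes. Xpo5, the exporter of microRNA precursors, was 32.3, 34.0 and 29.6 FPKM in control and 35.4, 35.1 and 37.1 FPKM with Nfia and was called only without control 2 (adjusted p = 0.048). Xpo7 was level (0.01, 95% interval -0.11 to 0.12, adjusted p = 0.94). The Xpo1 call ended without any 1 of the 6 libraries (adjusted p = 0.0515 to 0.115), and with no filter on low values, upper-quartile scaling or no variance trend (0.0525 to 0.0598). The Xpo6 call ended without control 1, control 3 or Nfia 1 (0.0555, 0.0626 and 0.0532). The Xpo4 call ended without each library but control 2 (0.077 to 0.109), and with no filter, upper-quartile or quantile scaling (0.0551 to 0.0677).

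The remaining 4 members fell below a mean of 1 FPKM and were not tested with the others. Nup210l, a paralogue of Nup210 known from testis, was 0.671 to 0.821 FPKM in control and 0.756 to 0.914 FPKM with Nfia. Nup62-il4i1, a readthrough symbol that overlaps Nup62, was 0.479 to 1.03 FPKM in control and 0.365 to 0.899 FPKM with Nfia. Nup62cl, a paralogue of Nup62, was 0.679, 1.06 and 0.613 FPKM in control and 0.289, 0.263 and 0.315 FPKM with Nfia. It ran opposite to Nup62: every Nfia library lay below every control library, and with no filter on low values it was called lower (log2 difference -0.46, adjusted p = 0.0225). Kpna7 is the fourth.

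Pore subunits and transport factors whose symbols the rule does not take were read beside these genes. Of 12 other pore subunits tested, 3 rose (25%) and 0 fell, beside 16.1% and 15.1% of all genes, with a median log2 difference of 0.14. Without control 3 or Nfia 2, 2 of the 12 rose. Ndc1, a membrane anchor of the pore, was 19.01, 19.99 and 19.6 FPKM in control and 23.4, 24.9 and 24.6 FPKM with Nfia (0.30, SE 0.04, adjusted p = 0.0033). Aaas, which encodes the Ndc1-binding subunit ALADIN, was 31.0, 32.1 and 30.5 FPKM in control and 37.6, 36.4 and 37.1 FPKM with Nfia (0.24, SE 0.04, adjusted p = 0.00542; without both control 1 and Nfia 1, 0.0532). Tpr, the filament of the nuclear basket, rose from 40.3 ± 1.35 to 47.1 ± 2.08 FPKM (0.22, SE 0.05, adjusted p = 0.0157), and was not called without control 3 or Nfia 2 (0.0567 and 0.0601). Ahctf1, which seeds pore assembly on chromatin, was next in order and did not pass (0.14, adjusted p = 0.0527).

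The Ran cycle and the receptors with other symbols gave 0 higher and 1 lower of 13 tested, beside 16.1% and 15.1% of all genes, with a median log2 difference of 0.04. Under other settings up to 3 were higher, with library quality weights. Up to 2 were lower, as with upper-quartile scaling, and 0 were lower without control 3. Ran itself was 229, 228 and 210 FPKM in control and 266, 245 and 232 FPKM with Nfia and did not pass (0.15, adjusted p = 0.127). Cse1l, the exporter that returns importin alpha to the cytoplasm, was 102, 82.6 and 95.2 FPKM in control and 108, 109.5 and 104 FPKM with Nfia (0.20, adjusted p = 0.0944), and Nutf2, the importer of Ran, had a difference of -0.18 (adjusted p = 0.0566). Ranbp6, a close relative of Ipo5, was 13.4 ± 0.425 FPKM in control and fell to 10.6 ± 0.926 FPKM (-0.31, SE 0.07, adjusted p = 0.0147), while Ipo5 rose. That call ended without control 3 (0.0532). Among 21 mRNA export genes, such as the receptor Nxf1 and the THO complex, limma called 0 higher and 0 lower, beside the same 16.1% and 15.1%. The median log2 difference of these genes was -0.01. At an unadjusted p under 0.05 stood 1 gene (Ncbp2, a cap-binding subunit, -0.09, adjusted p = 0.097). With upper-quartile or quantile scaling 1 gene was called lower, and 1 was called higher without Nfia 3.

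**Figure D4:**
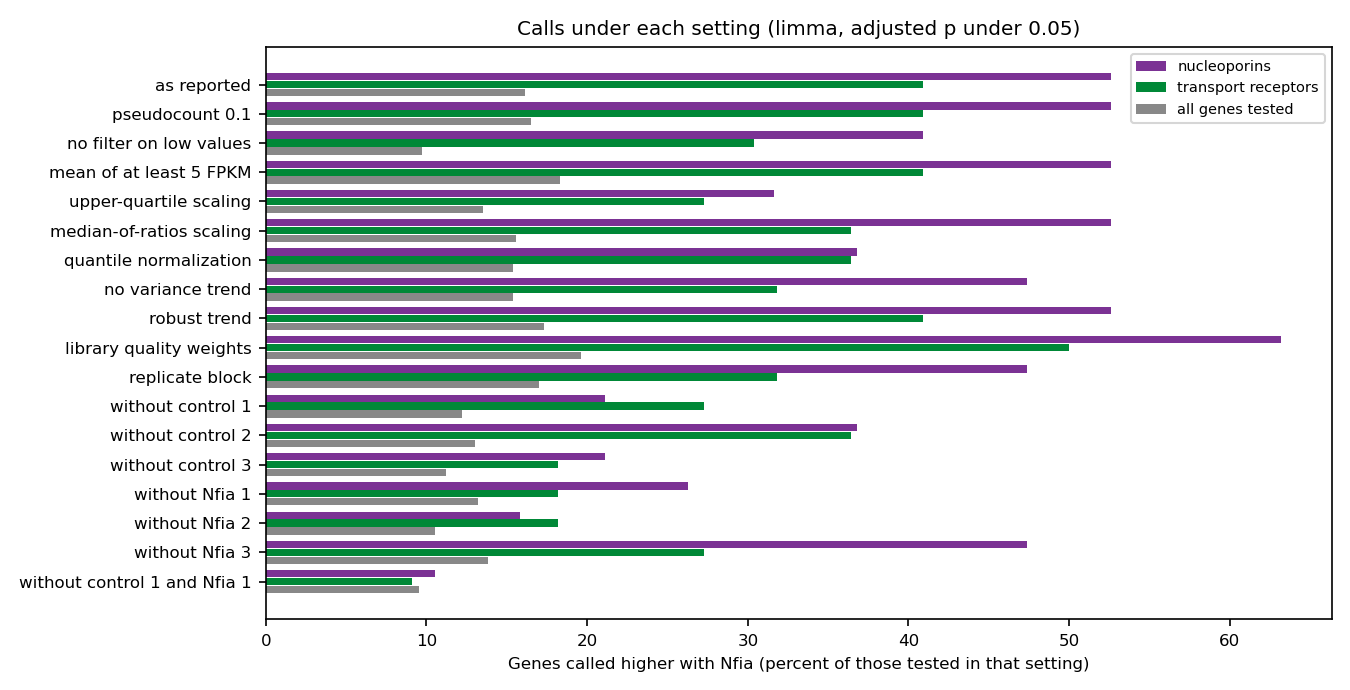
Share of tested nucleoporins (purple), transport receptors (green) and all genes (grey) called higher with Nfia (x axis, percent) as reported, under 10 other settings, without each library in turn, and without control 1 and Nfia 1 together. The shares of both classes are above that of all genes in each single setting and omission, fall to 15.8% and 18.2% without Nfia 2, and come close to it at 10.5% and 9.09% without control 1 and Nfia 1. That last fit has the fewest libraries per group.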

How the data were processed

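Poly(A) RNA was measured in 3 control and 3 Nfia libraries, grouped by their labels. The deposited values are FPKM, 1 per symbol and library; the files have no header, and the unit follows from their values and the tools. Per the submitters' processing notes, TopHat, Bowtie version 1, SAMtools, Cufflinks, Cuffdiff, MACS version 1.4 and the build mm10 were used, with no role given; the annotation, filters and strand setting were not given in the sources used here. FPKM expresses each gene relative to its library, so a rise of abundant transcripts lowers the others, and with no counts no counting interval can be given. Values were taken as log2(FPKM + 1) with no further scaling. Genes averaging at least 1 FPKM over 6 libraries were tested with limma (version 3.58.1, R 4.3.3, two-sided, with a variance trend and 4 residual degrees of freedom) and Benjamini-Hochberg adjustment over 12537 genes. The step was tested on simulated data. The differences set there were larger than most of those seen here, so that test does not cover differences of this size. Sums and ratios are of FPKM. Gene spans, start sites and promoter windows are from RefSeq tables of GRCm38.p6. The members, the lists of other genes and the tests were chosen with earlier results of these data known. Named with every library's value are the called members, the most and least abundant of each role and every importin alpha; others are given by count or difference, and for the other lists up to 4 genes by adjusted p, apart from a few named for their role after their values were seen. Alternatives were a pseudocount of 0.1, no filter, a mean of at least 5 FPKM, scaling by upper quartile, by median of ratios or by quantiles, no or a robust trend, library quality weights, a replicate block, and leaving out each library.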

Additional observations from a re-analysis of the deposited data

How the results depend on the processing

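The 41 members tested gave 697 comparisons with an alternative: 563 kept their direction and their side of the threshold, 93 lost a call, 14 gained one and 27 changed sign, in 8 genes that were not called. Of the 19 calls, 5 held under the 10 other settings and each single omission (Nup153, Nup210, Kpnb1, Ipo4 and Xpot), and 14 ended without some library. With 1 library left out, the calls were 3 to 9 higher nucleoporins, 4 to 8 higher and 0 to 1 lower receptors, and over all genes 1311 to 1724 higher and 1277 to 1620 lower. Leaving out control 1 and Nfia 1 together, an alternative chosen after seeing the data for their low fibroblast markers, gave 2 nucleoporins, 2 receptors, 1196 higher and 1094 lower genes. The median log2 differences in that fit were 0.176 for the nucleoporins and 0.133 for the receptors. Upper-quartile scaling gave 6 higher nucleoporins and 1 lower (Nup88), quantile scaling 7 and 1 (Nup88), and no filter 9 and 1 (Nup62cl, tested only there); the other counts stayed within 1.5 times. The median log2 difference of the nucleoporins was 0.148 with upper-quartile and 0.155 with quantile scaling, and that of the receptors 0.103, 0.110 and, with library quality weights, 0.149. With 1 library left out the receptors' median was 0.111 to 0.151. Changes of sign under other settings were Nup37 at 0.0172 (weights), Nup50 at -0.0105 (upper-quartile) and -0.0107 (quantile), and Xpo7 at -0.0265 (upper-quartile), -0.0014 (median-of-ratios), -0.0061 (quantile) and -0.0124 (weights). With a single library, or control 1 and Nfia 1 together, left out, Kpna1 ran from -0.0967 to 0.0024, Kpna3 from -0.0498 to 0.0146, Kpna6 from -0.0489 to 0.0263, Nup37 from -0.053 to 0.0446, Tnpo1 from -0.0373 to 0.0245, Tnpo2 from -0.0198 to 0.0818 and Xpo7 from -0.0295 to 0.027; the cause was not tested. Control and Nfia libraries share replicate numbers, but deviations of libraries with the same number correlated at 0.026, -0.006 and 0.046, none over 0.1, so the numbers were not taken to pair them; with the replicate block 9 nucleoporins, 7 receptors and 2130 higher and 1916 lower genes were called, the calls of Nup43, Ipo8, Xpo1 and Xpo4 ended (adjusted p = 0.0561, 0.0782, 0.0543 and 0.0614) and Ipo7 was called (0.0412). Differences of the size seen here, mostly under 0.3 on the log2 scale, are at the limit of 3 libraries per group, and the depth behind them is unknown.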
